A study of Oryza sativa Japonica Group with 6 samples.

Results

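The 10 genes described here encode chaperones of the endoplasmic reticulum (ER) and sensors of unfolded protein. They were chosen by identifier, and all 10 were found among the 29907 mRNA gene rows of the deposited expression table. They are the chaperones BIP1, BIP4, BIP5 and GRP94, the sugar-binding chaperones calnexin and a pair of calreticulins, and the sensor and factor genes IRE1, bZIP50 and bZIP39. RNA came from endosperm, the starch- and protein-storing tissue of the grain, of the Japonica rice cultivar NingJing1 at 10 days after pollination. Plants grown in the field until booting were then kept in growth chambers at high temperature (HT, n = 3 samples, days of 36 °C and nights of 33 °C) or at normal temperature (NT, n = 3 samples, days of 28 °C and nights of 25 °C). The series asked about long non-coding RNAs in the chalkiness that heat gives to grain. Whether the samples of a group are separate plants is not in the labels, so the p-values speak only of the spread among these samples, which may be technical.

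The ER is where rice endosperm folds glutelins and prolamins, its main storage proteins. BiP is the ER member of the HSP70 family, holds unfolded chains and, when free, keeps the stress sensors inactive. GRP94 is the ER member of the HSP90 family, and calnexin and calreticulin hold glycoproteins until they are folded. When unfolded protein builds up, the membrane protein IRE1 cuts an intron out of the bZIP50 mRNA, and bZIP39, held in the ER membrane, is released by proteolysis. Both factors then activate chaperone genes, and in rice BIP4 and BIP5 are known as BiP copies that respond to ER stress.

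Levels are given as FPKM, that is, fragments scaled by transcript length and library total. Sums over all rows lay between 372847 and 380742 FPKM in HT and between 365035 and 370669 FPKM in NT. The table holds no read counts, so sequencing depth is unknown. Of 17050 mRNA genes with a mean of at least 0.5 FPKM, 13.0% were higher and 22.8% lower in HT at an adjusted p under 0.05 (limma on log2(FPKM + 1), Benjamini-Hochberg over all genes tested). Rises made up 36.4% of these calls on the deposited scale and 47.0% once samples were rescaled on all but the 100 most abundant genes. The endosperm markers GLUA2, a glutelin, and GBSSI, the granule-bound starch synthase, were abundant in all samples, with 19733 to 20192 and 442 to 525 FPKM in HT and 18361 to 18767 and 1347 to 1442 FPKM in NT. Of the 4 endosperm markers listed, 1 was called higher and 3 lower in HT. In bulk tissue, fewer cells of a type and less RNA per cell cannot be told apart.

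Of the 10 genes, 9 had a mean of at least 0.5 FPKM and were tested. The 4 chaperone genes BIP1, GRP94 and both calreticulins rose in HT, beside 13.0% of all genes tested. IRE1 fell, beside 22.8% of all genes tested, and calnexin, BIP4, bZIP50 and bZIP39 did not pass the test. BIP5 was under the minimum mean. The median log2 fold change of the 9 genes was 0.71, against -0.08 over all genes tested, and the values ran from -0.26 to 1.59. The 9 include BIP4 at 0.75, which reached the minimum mean only through its HT samples. They also include bZIP39 at 1.11, which was -0.01 without NT sample 2. Both lie above the median, which therefore rests in part on them. The groups did not overlap for 6 of the 9 genes, of which 5 were higher and 1 lower in HT, where 51.7% of all genes tested had no overlap.

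**Figure D1:**
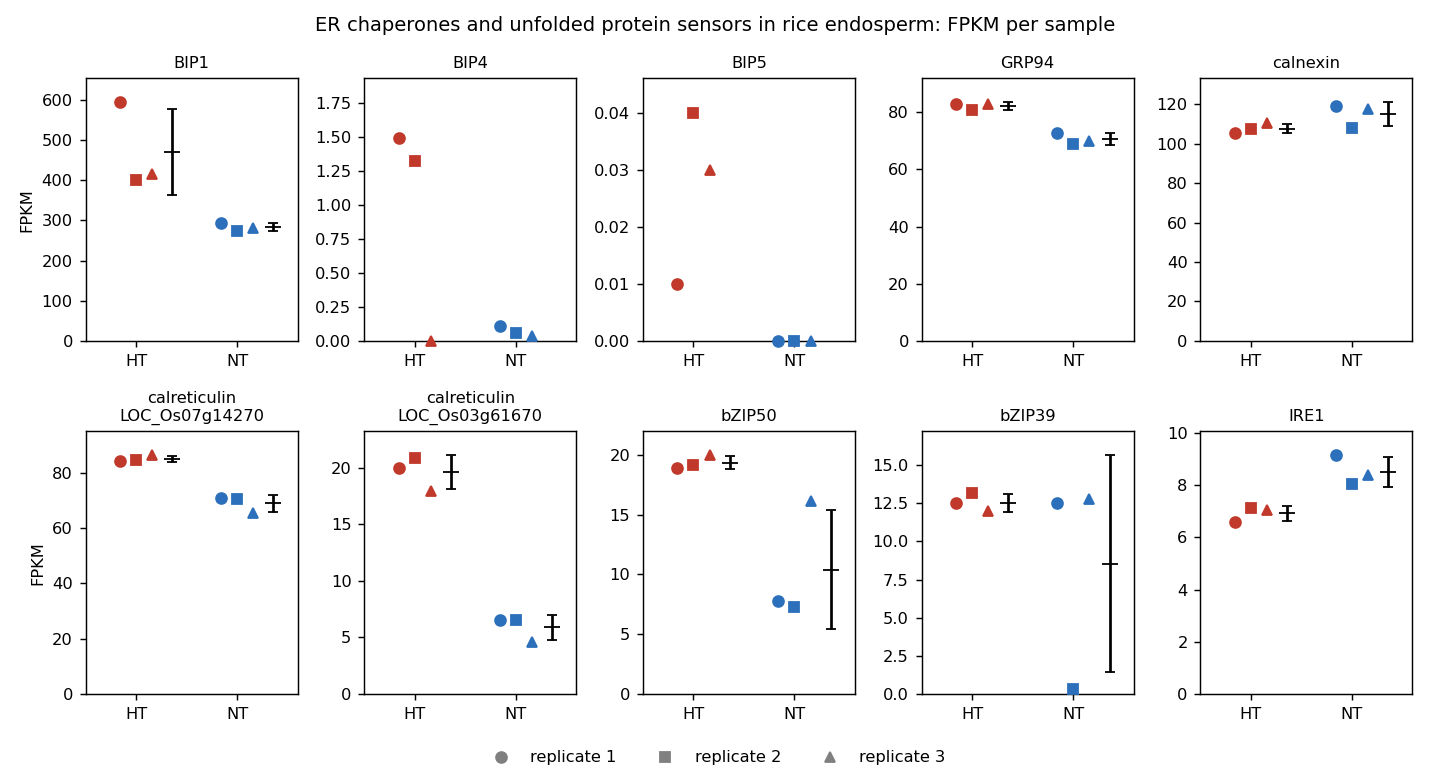
FPKM (vertical axes, from 0, a scale per gene) of the 10 genes in the 3 HT and 3 NT samples, with symbols for the replicate numbers and black bars for the mean and SD where no sample was listed at 0. BIP1 lay between 401 and 594 FPKM in HT, above the 275 to 295 FPKM of NT, while single samples stood apart for bZIP50 and bZIP39 in NT and for BIP4 in HT.

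BIP1 (LOC_Os02g02410, chromosome 2), the main BiP of rice seeds, was the most abundant of the 10 genes in every sample. It had 594, 401 and 415 FPKM in HT samples 1, 2 and 3 and 295, 275 and 280 FPKM in NT samples 1, 2 and 3. All HT samples were above all NT samples, and HT sample 1 stood well above the other HT samples, while the NT samples lay close together. By level, BIP1 ranked between 42 and 65 among the mRNA genes in HT and between 88 and 96 in NT. The mean was 470 ± 108 FPKM in HT and 283 ± 10.1 FPKM in NT (SD, n = 3 each), a ratio of 1.66. The log2 fold change was 0.71 with a standard error of 0.16 (limma, adjusted p = 0.022). Without NT sample 1, 2 or 3 the adjusted p was 0.057, 0.068 and 0.067, with log2 fold changes of 0.73, 0.69 and 0.70. Without HT sample 1 the log2 fold change was 0.53, with a smaller spread and an adjusted p of 0.0038.

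The other BiP genes were far lower. BIP4 (LOC_Os05g35400, chromosome 5) was listed at 1.49, 1.32 and 0 FPKM in the HT samples and at 0.11, 0.06 and 0.04 FPKM in the NT samples. Samples 1 and 2 of HT were above every NT sample, and sample 3 of HT was below every NT sample. Its mean over the 6 samples, 0.503 FPKM, was just over the minimum for testing. It reached that minimum only through the HT samples, so its test rests on a gene admitted by the difference itself. The log2 fold change of 0.75 had a 95% interval from -0.19 to 1.68 (limma, adjusted p = 0.18), and it was 1.86 with a pseudocount of 0.1. Leaving out HT sample 3, the one at 0, gave 1.17 (adjusted p = 0.0025), under the same limit. That sample is singled out here by its value, and leaving out any other single sample gave an adjusted p of 0.28 to 0.38 (limma). BIP5 (LOC_Os08g09770, chromosome 8) was listed at 0.01, 0.04 and 0.03 FPKM in HT and at 0 in each NT sample, values at the last decimal of the table, and no fold is given. With no minimum mean its adjusted p was 0.13.

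Copies BIP2 (LOC_Os03g50250) and BIP3 (LOC_Os05g30480) were also close to 0. BIP2 had 0.29, 0.20 and 0.35 FPKM in HT and 0, 0.03 and 0 FPKM in NT. It lay under the minimum mean, and with no minimum it passed the test (limma, adjusted p = 0.0063). BIP3 had at most 0.03 FPKM in any sample. BIP1 therefore made up at least 99.66% of the summed FPKM of BIP1, BIP4 and BIP5 in each HT sample and at least 99.96% in each NT sample. The difference of the mean shares, HT minus NT, was -0.17 percentage points (exact permutation test, two-sided, p = 0.4, where 0.1 is the smallest p that 3 against 3 samples allow). It was -0.27 without HT sample 3 and -0.10 without HT sample 2, and -0.0063 for the share of BIP1 in BIP1 and BIP5 alone. BiP copies are similar in sequence, and the sources used here do not say how the authors treated reads that match several copies.

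GRP94 (LOC_Os06g50300, chromosome 6) had a small rise with a narrow spread. It had 83.1, 80.8 and 82.8 FPKM in the HT samples and 72.8, 68.8 and 69.9 FPKM in the NT samples. The groups did not overlap, and the gap between them exceeded the spread within each. The means were 82.2 ± 1.27 FPKM in HT and 70.5 ± 2.10 FPKM in NT, a ratio of 1.17; on the log2 scale the rise was 0.22 ± 0.04 (standard error, adjusted p = 0.0085). It passed the test under each of the 14 alternatives tried.

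The calreticulin genes both rose, by different amounts. LOC_Os07g14270 on chromosome 7, named CRT1 in the RefSeq gene table, had 84.2, 84.5 and 86.3 FPKM in HT and 70.9, 70.6 and 65.4 FPKM in NT. Its groups did not overlap. The means were 85.0 ± 1.12 FPKM in HT and 68.9 ± 3.10 FPKM in NT, a ratio of 1.23; on the log2 scale the rise was 0.30 ± 0.04 (standard error, adjusted p = 0.0053). The calreticulin LOC_Os03g61670 on chromosome 3 had 20.0, 20.9 and 18.0 FPKM in HT and 6.53, 6.55 and 4.61 FPKM in NT, so that the lowest HT sample was well above the highest NT sample. The means were 19.6 ± 1.49 FPKM in HT and 5.90 ± 1.11 FPKM in NT, a ratio of 3.33. Its log2 fold change was 1.59 ± 0.14 (standard error, adjusted p = 0.00099), and 305 of the 17050 genes tested had a larger rise. It ranked between 1624 and 1916 by level in HT and between 5443 and 7115 in NT.

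Within a sample, the chromosome 3 gene stood at a larger share of the chromosome 7 gene in HT. Its FPKM was 0.237, 0.247 and 0.208 of that of LOC_Os07g14270 in HT and 0.0921, 0.0928 and 0.0705 of it in NT. All HT ratios were above all NT ratios (means 0.231 ± 0.0202 in HT and 0.0852 ± 0.0127 in NT, exact permutation test, two-sided, p = 0.1, the smallest this design allows). Both genes passed the test under each of the 14 alternatives.

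Calnexin (LOC_Os04g32950, chromosome 4), the membrane-bound partner of calreticulin, did not share the rise. It had 105, 108 and 110 FPKM in HT and 119, 108 and 118 FPKM in NT. NT sample 2 fell inside the HT range, so the groups overlapped. The log2 fold change was -0.09 with a 95% interval from -0.22 to 0.03 (adjusted p = 0.20), and its sign turned with the scaling, to 0.05 after quantile normalization. Relative to LOC_Os07g14270 in the same sample, calnexin stood at 1.25, 1.27 and 1.28 in HT and at 1.68, 1.53 and 1.80 in NT, ratios that scaling between samples by a factor leaves as they are. The HT ratios were all lower than the NT ratios (means 1.27 ± 0.0154 in HT and 1.67 ± 0.135 in NT, exact permutation test, two-sided, p = 0.1, the smallest possible).

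**Figure D2:**
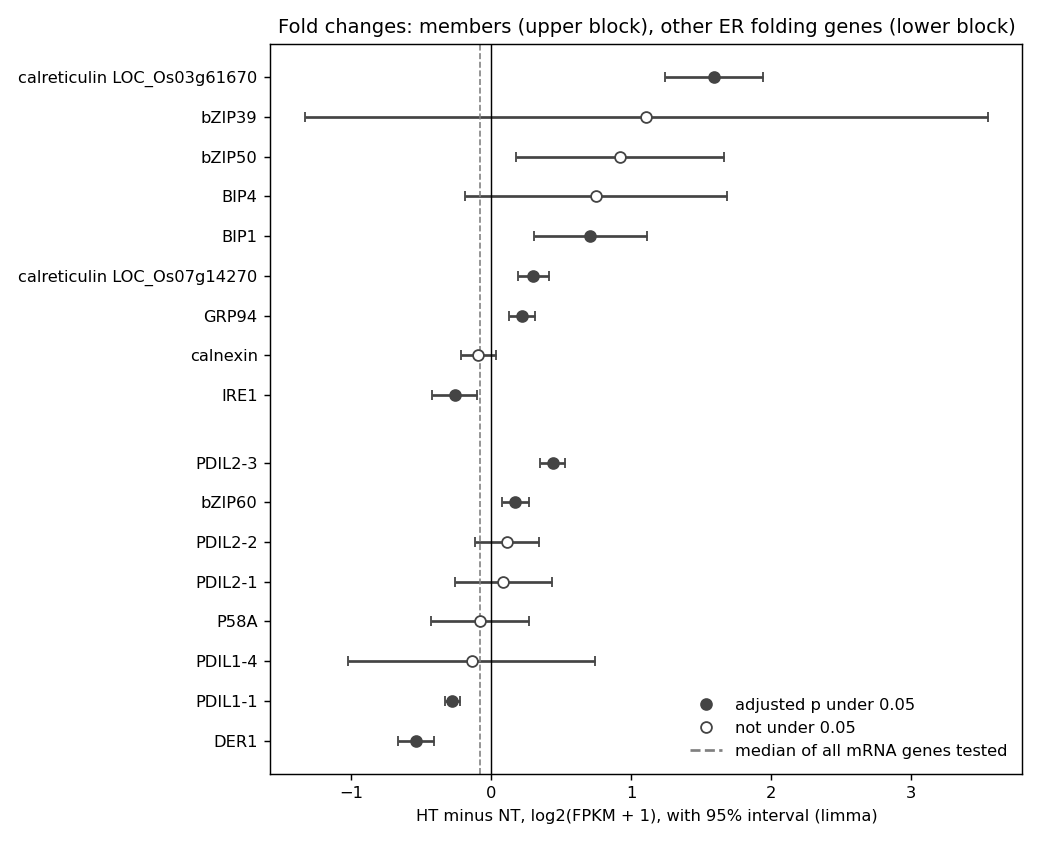
HT minus NT on the log2(FPKM + 1) scale (horizontal axis) with 95% intervals from limma for the 9 genes tested (upper block) and 8 other ER folding genes with a checked name (lower block); filled points had an adjusted p under 0.05, and the dashed line is the median of all genes tested. The calreticulin LOC_Os03g61670 stood at 1.59, and in the upper block the intervals of bZIP39, BIP4 and calnexin crossed 0. In the lower block those of PDIL1-4, PDIL2-1, PDIL2-2 and P58A crossed 0.

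IRE1 (LOC_Os07g28820, chromosome 7) is the kinase and RNase that senses unfolded protein. By level, it ranked between 4752 and 5048 among the 29907 mRNA genes in HT and between 4058 and 4583 in NT. It had 6.60, 7.12 and 7.07 FPKM in HT and 9.15, 8.03 and 8.38 FPKM in NT. All HT samples were below all NT samples. The means were 6.93 ± 0.287 FPKM in HT and 8.52 ± 0.573 FPKM in NT, a ratio of 0.813; the log2 fold change was -0.26 ± 0.06 (standard error, adjusted p = 0.028). The call was lost under each of the 3 other scalings, with log2 fold changes of -0.16 (quantile normalization), -0.20 (trimmed mean) and -0.17 (rescaled on all but the 100 most abundant genes). It was also lost without any 1 sample other than NT sample 2, with adjusted p between 0.058 and 0.080.

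bZIP50 (LOC_Os06g41770, chromosome 6), whose mRNA is the splicing target of IRE1, had 18.9, 19.2 and 20.0 FPKM in HT and 7.74, 7.27 and 16.1 FPKM in NT. The HT samples lay close together and were above all NT samples, but NT sample 3 lay nearer to them than to the other NT samples. The means were 19.3 ± 0.555 FPKM in HT and 10.4 ± 4.98 FPKM in NT, and the log2 fold change of 0.92 had a standard error of 0.29 (adjusted p = 0.062). Without NT sample 3 it was 1.26, with adjusted p = 0.0012. The gene also passed after quantile normalization (adjusted p = 0.0495) and when rescaled on all but the 100 most abundant genes (adjusted p = 0.049). With the fit without NT sample 3, these were the only 3 of the 14 alternatives under which it passed. Trimmed-mean scaling gave an adjusted p of 0.053 (limma), and leaving out any other single sample gave 0.13 to 0.16. Over genes with at least 5 FPKM in NT sample 3, 1.79% had a value there more than 2 times both other NT values. A gene-level FPKM does not separate the spliced from the unspliced form of this mRNA.

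bZIP39 (LOC_Os05g34050, chromosome 5), the membrane-held factor, had 12.5, 13.2 and 12.0 FPKM in HT and 12.5, 0.33 and 12.8 FPKM in NT. Apart from NT sample 2, the groups overlapped. With all samples the log2 fold change was 1.11, with a standard error of 0.97 and adjusted p = 0.43. Without NT sample 2 it was -0.01, with a standard error of 0.06 and adjusted p = 0.90, so the difference between the means rested on that sample. A value more than 10 times lower than both others of its group occurred in NT sample 2 in 0.741% of genes whose other NT values averaged at least 5 FPKM. The other samples had 0.767% to 1.38% of such genes.

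**Figure D3:**
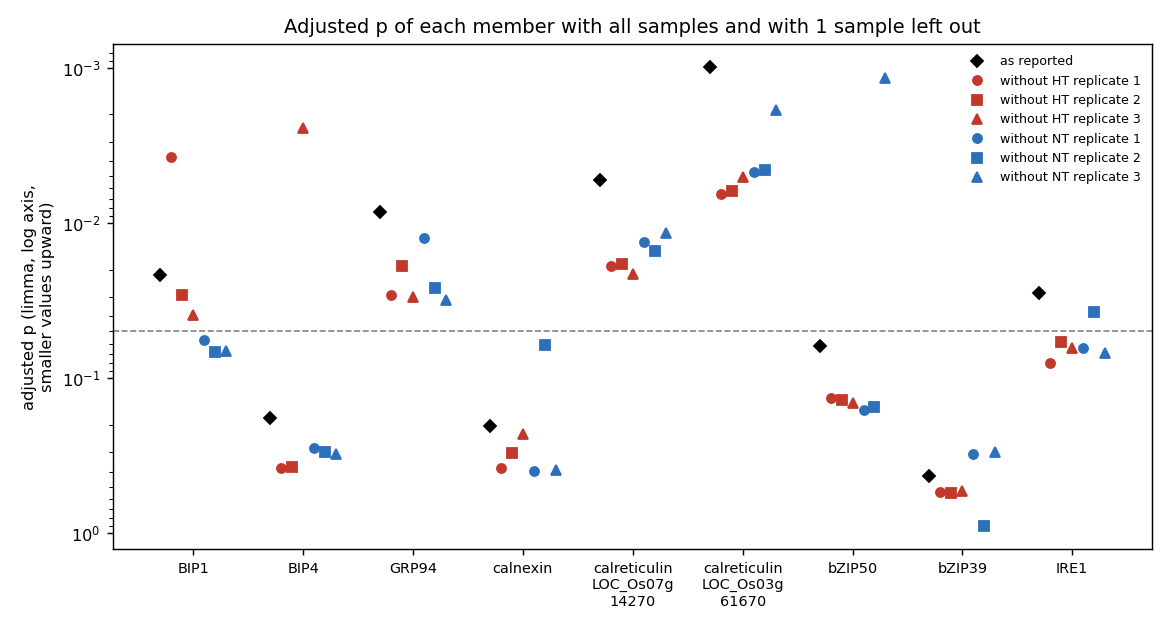
Adjusted p (limma, log axis with smaller values upward) of the 9 genes tested, with all samples (black) and with 1 sample left out (red for HT, blue for NT); the dashed line is 0.05. GRP94 and both calreticulins stayed past the line throughout, whereas BIP1 fell short of it without any NT sample and bZIP50 and BIP4 passed it only without NT sample 3 and HT sample 3.

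The order of levels among the genes was alike in the groups at the top and differed further down. In HT the order of means was BIP1, calnexin, LOC_Os07g14270, GRP94, LOC_Os03g61670, bZIP50, bZIP39, IRE1, BIP4 and BIP5. The calreticulin LOC_Os03g61670 and bZIP50 overlapped in their HT samples, and no other neighbours in that order did down to IRE1. In NT, BIP1 and calnexin again came first, the NT samples of GRP94 and LOC_Os07g14270 overlapped, and so did those of bZIP50, bZIP39 and IRE1. LOC_Os03g61670 lay below IRE1 in every NT sample and above it in every HT sample.

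Summed over the 7 chaperone genes, the level was 888, 696 and 713 FPKM in HT and 564, 529 and 538 FPKM in NT. BIP1 made up most of the difference. Its share of that sum was 66.9%, 57.6% and 58.3% in HT and 52.2%, 52.0% and 52.1% in NT, and HT sample 1 again stood apart. BIP1 was 7.16, 4.96 and 5.01 times GRP94 in HT while the NT samples had an almost constant ratio of 4.02 ± 0.0238 (SD, n = 3). For the sum, the share and this ratio the groups did not overlap (exact permutation test, two-sided, p = 0.1 for each of the 3, the smallest possible). These and the calreticulin, calnexin and BiP-share comparisons belong to a family of 9 such quantities. Adjusted over these by Benjamini-Hochberg, the exact p was 0.11 for the 8 at the smallest p and 0.4 for the BiP share.

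**Figure D4:**
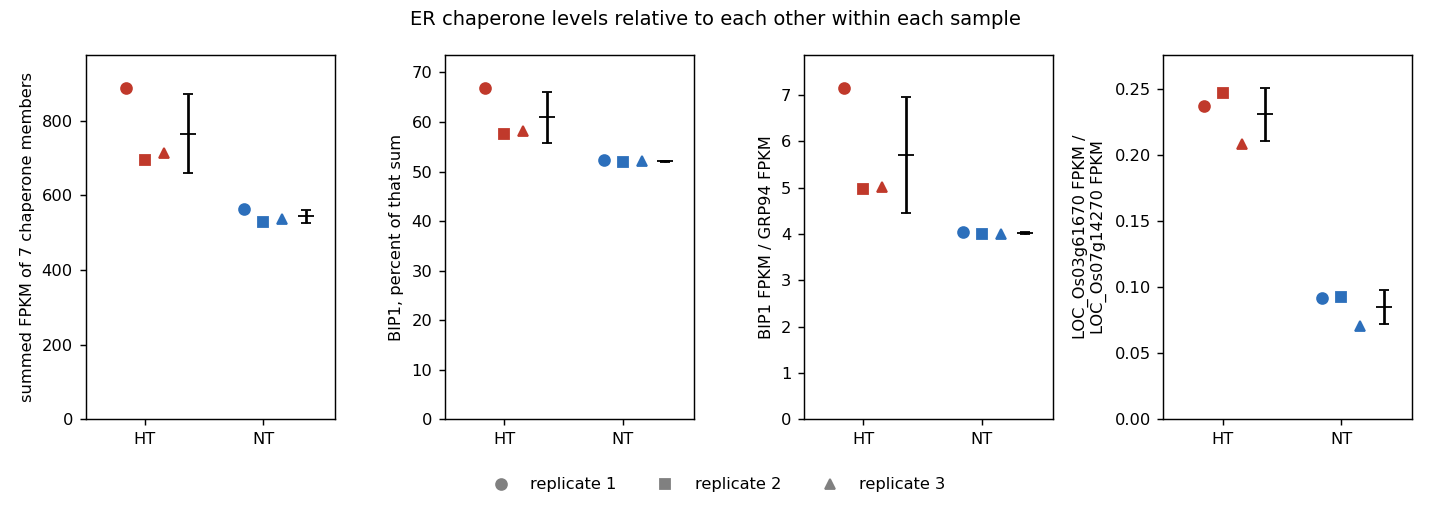
Summed FPKM of the 7 chaperone genes, the percent of it from BIP1, the ratio of BIP1 to GRP94 and the ratio of the calreticulins LOC_Os03g61670 and LOC_Os07g14270 (vertical axes, from 0) in each HT and NT sample, with black bars for the mean and SD. HT sample 1 had a BIP1 to GRP94 ratio of 7.16, above the other HT samples at 4.96 and 5.01, and the NT samples averaged 4.02.

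Across the 6 samples, log2 levels of BIP1 correlated with those of GRP94 at Pearson r = 0.91, of LOC_Os03g61670 at r = 0.88 and of LOC_Os07g14270 at r = 0.85. The calreticulins correlated with each other at r = 0.99. IRE1 ran the other way from BIP1 (r = -0.88). These values describe 6 points that fall into the 2 groups and share their libraries. By the same measure, GRP94 ranked 175 of 6668 genes with a mean of at least 5 FPKM in likeness to BIP1. The most alike gene was LOC_Os02g14929 (r = 0.99), with 13.0, 10.7 and 11.1 FPKM in HT and 8.66, 8.15 and 8.28 FPKM in NT. LOC_Os06g45710 came next (r = 0.99), with 178, 138 and 137 FPKM in HT and 91.7, 90.1 and 93.9 FPKM in NT. Both were highest in HT sample 1, as BIP1 was, which their choice by likeness to BIP1 over these same samples favours. The sources used here give these identifiers no name.

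Of 14 other identifiers listed for ER folding and quality control, 12 were tested, 4 rose and 2 fell, beside the same 13.0% and 22.8% of all genes. The reference gene table holds the names of 10 of the 14, of which 8 were tested, 2 rose and 2 fell, with a median log2 fold change of 0.0021. The other identifiers that rose, whose listed names were not found there, were LOC_Os03g52340, with 36.9 ± 0.866 FPKM in HT and 28.6 ± 0.885 FPKM in NT (adjusted p = 0.0025), and LOC_Os08g34190, with 14.5 ± 0.191 FPKM in HT and 11.6 ± 0.362 FPKM in NT (adjusted p = 0.0049). Of the named genes, the disulfide isomerase PDIL2-3 (LOC_Os09g27830) had 89.9, 85.7 and 87.2 FPKM in HT and 64.5, 63.3 and 65.1 FPKM in NT, with no overlap and a rise of 0.44 on the log2 scale (adjusted p = 0.00075). The membrane-bound factor bZIP60 (LOC_Os07g44950) had 40.1, 41.8 and 41.0 FPKM in HT and 36.7, 35.3 and 36.6 FPKM in NT. Its log2 fold change of 0.17 (adjusted p = 0.020) did not pass without HT sample 3 (adjusted p = 0.054) or NT sample 2 (adjusted p = 0.052).

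DER1 (LOC_Os05g09550), a derlin of ER-associated degradation, had 12.2, 12.8 and 12.8 FPKM in HT and 19.0, 17.9 and 19.4 FPKM in NT. Its log2 fold change was -0.54 (adjusted p = 0.0013), and the call held under each of the 14 alternatives. PDIL1-1 (LOC_Os11g09280), the disulfide isomerase known for folding proglutelin, had 558, 562 and 559 FPKM in HT and 681, 678 and 679 FPKM in NT. On the deposited scale it fell by 0.28 in log2 terms (limma, adjusted p = 0.00067). The log2 fold change was -0.21 after trimmed-mean scaling (adjusted p = 0.0017). It was -0.18 when rescaled on all but the 100 most abundant genes (adjusted p = 0.0029). The call held under 13 of the 14 alternatives. Only quantile normalization lost it, with a value of 0.014 (adjusted p = 0.81). PDIL1-4, PDIL2-1, PDIL2-2 and the BiP co-chaperone P58A were not called. PDIL1-4 (LOC_Os02g01010) had 122, 135 and 138 FPKM in HT and 197, 186 and 82.8 FPKM in NT, and without NT sample 3 its log2 fold change was -0.54 (adjusted p = 0.0099).

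Markers of other grain tissues were measured in the same samples. The 3 embryo and aleurone markers with a row summed to 805, 834 and 840 FPKM in HT and to 152, 611 and 114 FPKM in NT. None of them was at 0, and 2 of the 3 were called higher, beside 13.0% of all genes tested. Most of the sum came from LOC_Os04g46200, with 649, 656 and 679 FPKM in HT and 112, 569 and 74.3 FPKM in NT. That marker was not called (limma, adjusted p = 0.11). The called markers varied little within NT: LOC_Os11g26790 had 27.2, 28.4 and 25.8 FPKM there, and VP1 had 13.0, 13.5 and 13.4 FPKM. Of the 3 names, only VP1 was found in the reference gene table. The 4 green pericarp markers summed to 125, 102 and 138 FPKM in HT and to 187, 171 and 141 FPKM in NT. None was at 0, and 1 of the 4, the light-harvesting gene CAB2R (LOC_Os01g41710), fell, beside 22.8% of all genes tested. The part of these tissues in the changes of the ER genes was not tested. None of the 10 genes was found in the authors' deposited lncRNA, microRNA pairing or starch-metabolism tables.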

How the data were processed

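Endosperm RNA of 3 HT and 3 NT samples was depleted of ribosomal RNA and paired-end sequenced by Illumina, per the labels' protocols. HISAT2 2.0.4, StringTie 1.3.0, FastQC 0.10.1 and cutadapt 1.10 are named, with no role, in the submitters' processing notes. The sources used here do not give build, annotation or use of strand. Levels were deposited by the authors as FPKM to 2 decimals, per the file headers. Low values lay within 0.1 of whole multiples of a row's lowest value in 17.3% to 18.6% of cases. That lowest value could come from any sample, each with its own scale, so these shares cannot tell whether whole reads underlie the values. Read counts were not recovered and no count model was used.

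Tests used R 4.3.3 and limma 3.58.1 on log2(FPKM + 1), a scale that understates the change of low genes, with a variance trend on the mean, two-sided, on mRNA rows with a mean of at least 0.5 FPKM. P-values were adjusted by Benjamini-Hochberg over all 17050 genes, and a call is an adjusted p under 0.05. Exact permutation tests ran over samples. The fit was tested on simulated data. The 10 genes and the lists were chosen with earlier results of these data known. All 10 genes, every called gene of the ER folding list and the top rows most like BIP1 are named or given by identifier, and the other genes given with values were chosen after these were seen. Names were written by hand, and those of 6 of the 10 genes (BIP1, BIP4, CRT1, bZIP50, bZIP39, IRE1) were found in the RefSeq gene table (ASM3414082v1) on the chromosome given by the identifier. The names of BIP5, GRP94, calnexin and the chromosome 3 calreticulin were looked for there and not found, so they rest on the list alone. Of 14 other ER folding genes, 10 names were found there, and sensitivity counts are over those 10. No sequence is shown. Alternatives were a pseudocount of 0.1, no minimum mean or one of 1 FPKM, 3 other scalings, a replicate block, one prior variance and leaving out each sample.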

Additional observations from a re-analysis of the deposited data

How the results depend on the processing

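GRP94, both calreticulins, PDIL2-3 and DER1 kept their direction and call under all 14 alternatives. The count of the 10 genes lower in HT was 1 as reported (IRE1) and 0 after quantile normalization, trimmed-mean scaling and rescaling on all but the 100 most abundant genes, and between 0 and 1 with 1 sample left out. The count higher was 4 to 5 under the scalings and 3 to 5 with 1 sample left out. Among the 10 other ER folding genes with a checked name, 1 fell after quantile normalization, and 1 to 2 rose with 1 sample left out. Calnexin reversed to 0.047 after quantile normalization and 0.0070 after that rescaling, PDIL1-1 to 0.014 after quantile normalization, and P58A to 0.024 and 0.0088 in those settings. With 1 sample left out, the log2 fold change ran from -0.012 to 1.68 for bZIP39, from -0.54 to 0.081 for PDIL1-4, from -0.063 to 0.17 for PDIL2-1 and from -0.16 to 0.037 for P58A. Where no cause is given above, the cause was not tested.

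Same-numbered HT and NT samples did not deviate together (correlations of -0.017, -0.0028 and 0.0039). These values give no sign of pairing by number, but they cannot exclude that same-numbered samples were handled together. With the replicate block, 4 of the 10 genes were higher and 0 lower, 1 other ER folding gene was higher, as IRE1 (adjusted p = 0.099) and bZIP60 (adjusted p = 0.077) lost their calls, and 4567 genes were called in all, against 6109 without it. Depth is unknown, so the counting error of values near 0, such as those of BIP4 and BIP5, could not be computed.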
